A study of Medicago truncatula with 4 samples.

Results

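The genes described here are *MtABI3* and other genes annotated as regulators or proteins of embryo maturation, measured by RNA-seq in calli of *Medicago truncatula*. *MtABI3* was chosen because of its read counts in these same libraries, so its values are given as a description, with no test. The other genes were chosen from the annotation deposited with the counts, by descriptions of abscisic acid (ABA) insensitivity, leafy cotyledon, FUSCA or late embryogenesis, or by a symbol starting with MtABI, MtLEC or MtFUS and followed by a digit. The rule found 10 genes among the 52709 in the table, of which 3772 carry a symbol. They are the 3 ABA-insensitive factors *MtABI3*, *MtABI4* and *MtABI5*, the 4 late embryogenesis abundant (LEA) genes *MtPM25*, *MtLEA4-5*, *MtLEA* and *MtEM6*, and *MtLEC4*, *MtLEC5* and *MtLEC7*. The deposited descriptions of the last 3 name lectins, not LEAFY COTYLEDON factors, so they are called lectins here. The terms leafy cotyledon and FUSCA matched 0 descriptions, so *LEC1*, *LEC2* and *FUS3* were not analysed here under those names.

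The libraries came from 2 wildtype and 2 *MtWOX9-1*-overexpressing (MtWOX9-1oe) callus samples, named as biological replicates, all in the R108 background, an embryogenic line. The overexpressing plants carry the *MtWOX9-1* coding sequence inserted from the plasmid pMDC32, a vector with a constitutive promoter of cauliflower mosaic virus. The labels do not say how many transformed lines were used, and the control is labelled as R108 wildtype. Both groups started from leaves of plants grown in soil for 35 days, and the explants then spent 30 days with the auxin 2,4-D at 18 μM and the cytokinin BAP at 2.22 μM and 5 days without hormones, so the calli were collected on day 35 of culture. The question these libraries address is which genes differ in expression when *MtWOX9-1*, a homeobox gene linked to somatic embryogenesis, is overexpressed.

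Embryo maturation is the late phase of seed development, when the embryo stores protein and oil, stops growing and becomes able to dry out. In *Arabidopsis thaliana* it is directed by the B3-domain factors ABI3, FUS3 and LEC2 together with LEC1, a B subunit of the trimeric nuclear factor Y. ABI3 binds RY elements and acts with the bZIP factor ABI5, which binds ABA-responsive elements, on the promoters of storage protein and LEA genes. ABI4 is an AP2-type factor of the same hormone response. LEA proteins are hydrophilic proteins that accumulate in drying seeds and in stressed tissue, and the same factors can switch on when somatic embryos form on callus.

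The libraries held between 5241334 and 6666866 counts, and a count of 0 in one library allows up to between 0.450 and 0.572 CPM (counts in 1000000 of the library) when 3 counts are set as the limit of detection. These limits hold for counting error alone. The overexpressed gene itself, listed as *MtWOX9b* (MtrunA17Chr2g0283141), had 2 and 18 counts in wildtype calli against 7692 and 7634 in MtWOX9-1oe calli, as the labels say. Of 24630 genes with at least 10 counts in total, 20.2% were called higher and 18.9% lower in MtWOX9-1oe calli at an adjusted p under 0.05, or 39.2% in either direction (quasi-likelihood test of edgeR, adjusted by the Benjamini-Hochberg method, as for every adjusted p below). The keywords for leaf photosynthetic cells and for xylem and phloem matched 0 annotated genes, so the callus label could not be checked against them. With 2 libraries a group, the smallest p an exact permutation test of a single value could reach is 0.333, so single genes were tested only in the fit across all genes.

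Of the 10 genes, 6 had counts and all of these had at least 10 counts in total. The other 4 (*MtEM6*, *MtLEC4*, *MtLEC5* and *MtLEC7*) had 0 counts in all 4 libraries. The 3 ABA-insensitive factors and 2 LEA genes, *MtPM25* and *MtLEA4-5*, were higher in both MtWOX9-1oe libraries than in either wildtype library, as were 39.3% of all tested genes. *MtLEA* went the other way and was lower in both, as were 35.8% of all tested genes. Leaving *MtABI3* aside, 4 genes were called higher and 1 lower, beside the 20.2% and 18.9% of all tested genes. This count is no evidence about the group, since *MtABI4*, *MtPM25* and *MtLEA4-5*, with 5 wildtype counts or fewer, reached 10 counts only through the MtWOX9-1oe libraries. Of the 884 tested genes with 0 counts in both wildtype libraries, 85.2% were called higher.

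**Figure D1:**
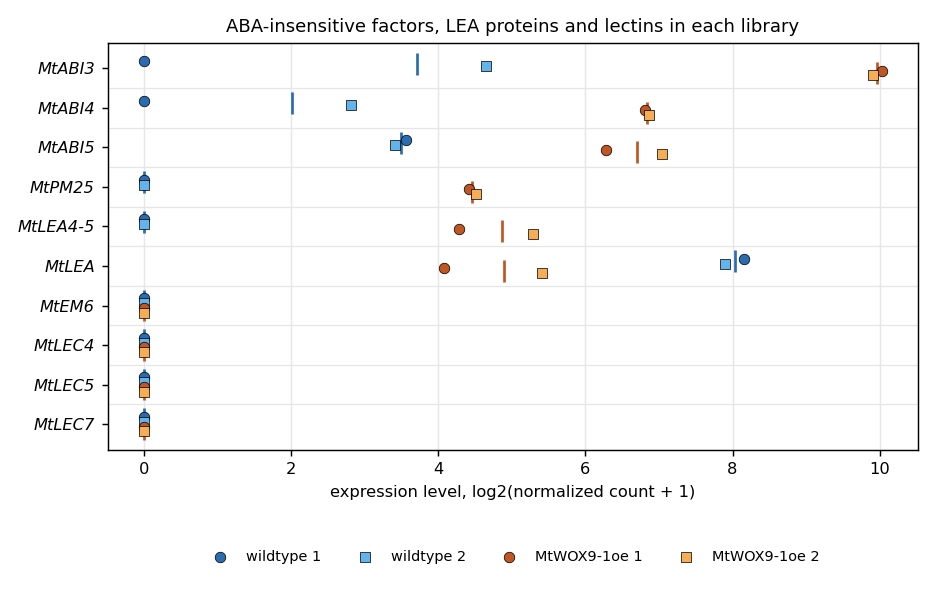
Expression level of each of the 10 genes on the scale of log2(normalized count + 1), 1 point per library, with a vertical tick at the level of each group's mean. Points of the 2 groups do not overlap for the 6 genes with counts, *MtLEA* is the only one of them with the wildtype libraries on the right, and the 4 genes at the bottom sit at 0 in all 4 libraries.

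*MtABI3* (MtrunA17Chr7g0237841, on chromosome 7 of MtrunA17r5.0-ANR) encodes the B3-domain regulator of maturation. It had 0 and 20 counts in wildtype replicates 1 and 2, and 1184 and 1060 counts in MtWOX9-1oe replicates 1 and 2. Both MtWOX9-1oe libraries were high and close to each other, whereas the wildtype libraries differed from each other. Normalized for library size and composition, the means were 12 ± 17 in wildtype and 1001 ± 58.9 in MtWOX9-1oe calli (SD, n = 2), a ratio of means of 83.2. The lower MtWOX9-1oe library was 39.9 times the higher wildtype library. In CPM, the level was 0 and 3.82 in wildtype and 178 and 166 in MtWOX9-1oe calli. In bulk calli, fewer cells expressing a gene and less RNA of it per cell cannot be told apart.

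The size of the difference in *MtABI3* was set by wildtype replicate 2, the only wildtype library with counts. The fitted log2 fold change was 6.43 with all libraries and lay between 5.37 and 6.49 without wildtype replicate 1 or either MtWOX9-1oe library. Without wildtype replicate 2 it rests on 0 counts, and the MtWOX9-1oe mean was then at least 310-fold higher than the 3-count limit in wildtype replicate 1. Against wildtype replicate 2 alone the ratio was 41.6.

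*MtABI4* (MtrunA17Chr5g0437371, chromosome 5) encodes the AP2-type factor. It had 0 and 5 counts in wildtype calli against 126 and 127 in MtWOX9-1oe calli. As for *MtABI3*, wildtype replicate 1 was at 0 and the MtWOX9-1oe libraries were close to each other. The normalized means were 3.01 ± 4.26 and 113 ± 2.82 (SD, n = 2), and the log2 fold change was 5.25 with a standard error (SE) of 0.65 (adjusted p = 0.0057). Without wildtype replicate 2 the mean of the MtWOX9-1oe libraries was at least 35.0-fold higher than the 3-count limit, and against that library alone the ratio was 18.8. With 5 wildtype counts in total, *MtABI4* entered the test only through the libraries where it was high, so this p is no support for the direction beyond the counts themselves.

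*MtABI5* (MtrunA17Chr7g0266211, chromosome 7) encodes the bZIP factor, which is the one of the 3 with counts in both wildtype libraries. It had 10 and 8 counts in wildtype and 87 and 144 in MtWOX9-1oe calli. Here the wildtype libraries were close to each other and the MtWOX9-1oe libraries were spread. The normalized means were 10.2 ± 0.80 and 103 ± 38.0 (SD, n = 2), a ratio of 10.1, and the log2 fold change was 3.32 ± 0.39 (SE, adjusted p = 0.0050). Leaving out each library in turn gave log2 fold changes between 2.89 and 3.66. The lower MtWOX9-1oe library was 7.12 times the higher wildtype library.

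**Figure D2:**
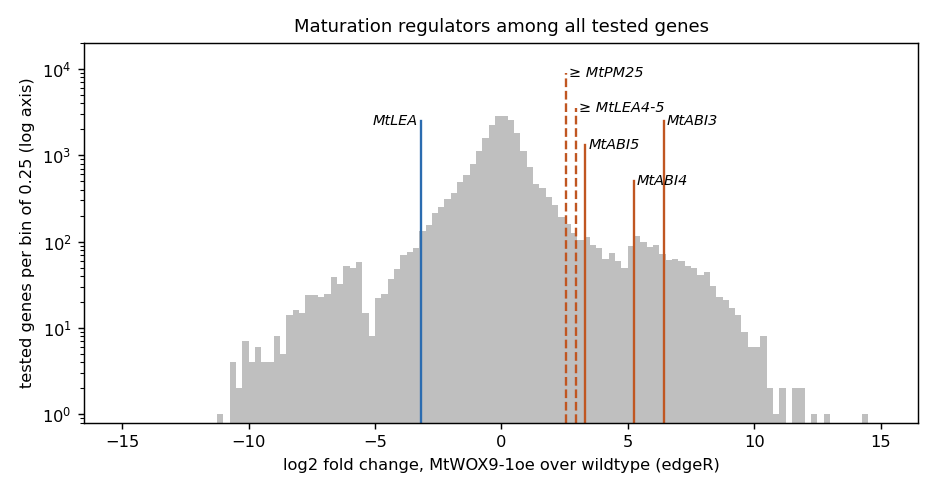
Histogram of the fitted log2 fold change (MtWOX9-1oe over wildtype) of all 24630 tested genes on a logarithmic vertical axis, with vertical lines at the 6 genes with counts; the heights of these lines carry no value. *MtABI3* at 6.43, *MtABI4* at 5.25 and *MtABI5* at 3.32 lie in the right tail and *MtLEA* at -3.18 in the left, and the dashed lines of *MtPM25* and *MtLEA4-5* stand at lower bounds of 2.54 and 2.97.

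The LEA genes did not move together. *MtPM25* (MtrunA17Chr1g0205331, chromosome 1), named after a soybean seed maturation protein, was at 0 in both wildtype libraries, while the MtWOX9-1oe libraries held 23 and 24 counts. Its mean in MtWOX9-1oe calli was 21.0 ± 1.04 normalized counts (SD, n = 2), and this is at least 5.81-fold higher than the 3-count limit of the wildtype libraries, taken as the higher of the 2 limits (adjusted p = 0.0075). *MtLEA4-5* (MtrunA17Chr7g0258631, chromosome 7) was at 0 in both wildtype libraries too, and the MtWOX9-1oe libraries held 21 and 42 counts, so it was also detected in 1 group only. The mean of 28.3 ± 13.8 normalized counts (SD, n = 2) in these libraries was at least 7.83-fold higher than that limit, and the lower of the 2 libraries at least 5.12-fold higher (adjusted p = 0.013). At this depth, a level of *MtPM25* or *MtLEA4-5* in wildtype calli under 0.572 CPM was not detectable.

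*MtLEA* (MtrunA17Chr3g0127951, chromosome 3), described only as late embryogenesis abundant, had 264 and 198 counts in wildtype and 18 and 46 in MtWOX9-1oe calli. It was the one gene of the 10 with more than 20 counts in a wildtype library, and both MtWOX9-1oe libraries were lower. The normalized means were 261 ± 32.5 and 28.7 ± 18.2 (SD, n = 2), so the wildtype mean was 9.09 times the MtWOX9-1oe mean, and the lower wildtype library was 5.72 times the higher MtWOX9-1oe library. The log2 fold change was -3.18 ± 0.40 (SE, adjusted p = 0.0058) and lay between -4.03 (without MtWOX9-1oe replicate 2) and -2.64 when each library was left out in turn. *MtEM6* (MtrunA17Chr4g0007001, chromosome 4), named after an LEA protein of mature seeds, was at 0 in every library, so neither group's level exceeded the limit of a count of 0. Whether *MtEM6* differs between the groups cannot be read from these counts.

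The lectins are carbohydrate-binding proteins. *MtLEC5* (MtrunA17Chr5g0411721) and *MtLEC7* (MtrunA17Chr8g0367051) matched RefSeq entries by name on the same assembly, at positions 13219288 to 13220308 of chromosome 5 and 30808721 to 30809735 of chromosome 8. *MtLEC4* (MtrunA17Chr1g0197771) lies on chromosome 1. None of the 3 had a count in any library, and they are not discussed further.

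**Figure D3:**
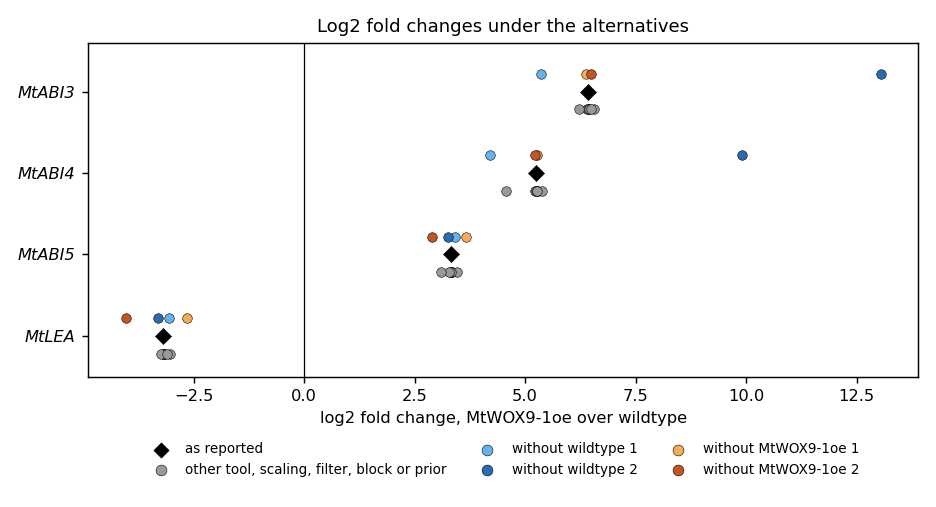
Log2 fold change (MtWOX9-1oe over wildtype) of the 4 genes with counts in wildtype calli, as reported (black diamonds), with each library left out (coloured points) and under other tools, scalings, filters, the replicate block or another prior count (grey points). *MtABI5* and *MtLEA* stay within 2.89 to 3.66 and -4.03 to -2.64 without any library, whereas *MtABI3* and *MtABI4* reach 13.05 and 9.90 without wildtype replicate 2, where the wildtype count is 0 and the fitted value is no measure of size.

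The lower counts of *MtABI3* and *MtABI4* in wildtype replicate 1 than in replicate 2 were shared by other genes. Among the genes called higher, 64.5% had a higher normalized count in wildtype replicate 2 than in replicate 1, against 30.5% of the genes called lower and 50.8% of the genes not called. There were 498 tested genes with 0 counts in wildtype replicate 1 and at least 5 in replicate 2, and 323 with the reverse. *MtABI5*, called higher as well, did not share this, with normalized counts of 10.8 in wildtype replicate 1 and 9.63 in replicate 2. *MtPM25* and *MtLEA4-5* had 0 counts in both wildtype libraries, so they cannot show such a difference.

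Genes named after the root cap were also higher in MtWOX9-1oe calli. They were matched by words only, and no cell type was observed. Of 10 genes with root cap in their description, all 10 were called higher, beside 20.2% of all tested genes, although 5 of them had fewer than 10 wildtype counts and entered the test only through the MtWOX9-1oe libraries. Their summed normalized counts were 32.3 and 189 in wildtype replicates 1 and 2 and 8967 and 13682 in MtWOX9-1oe replicates 1 and 2. *MtRC4* was the one of them at 0 in both wildtype libraries. As for *MtABI3* and *MtABI4*, wildtype replicate 2 was above replicate 1. The part of root cap cells in the levels of the maturation genes was not tested. The shoot meristem keywords matched 42 genes, most of them CLE peptide genes through the word CLAVATA3. Of the 11 tested, 3 were called higher and 3 lower, beside 20.2% and 18.9% of all tested genes. Of the 3 called higher, 2 had fewer than 10 wildtype counts and entered the test only through the MtWOX9-1oe libraries. *MtWUS*, among those called lower, had 6 and 12 counts in wildtype and 0 in both MtWOX9-1oe libraries. It entered the test only through the wildtype libraries. The summed normalized counts of the shoot meristem list were 760 and 666 in wildtype and 607 and 682 in MtWOX9-1oe calli.

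The 5 genes with a symbol whose levels were most like those of *MtABI3*, by the Euclidean distance of log2(normalized count + 1) over the 4 libraries among 3771 candidates, belong to different families. This distance takes in the length of each transcript, which was not corrected for, so it describes likeness of read counts and not of transcript numbers. *MtnsLTP117*, a non-specific lipid transfer protein gene, was nearest (distance 0.93), with 0 and 38 counts in wildtype and 1351 and 979 in MtWOX9-1oe calli. *MtGASA21*, of the gibberellin-regulated peptide family, followed at 0.97 with 0, 25, 674 and 1421 counts in the same order. The peroxidase gene *MtPrx39;MtRIP2* (distance 1.03) had 0, 12, 737 and 1326 counts. In each of these 3 genes, wildtype replicate 1 was at 0. So it was in the phytocyanin gene *MtPCY25* (distance 1.17), with 0, 30, 752 and 614 counts, and in *MtRC3*, a Root Cap gene (distance 1.52), with 0, 8, 690 and 1413 counts. *MtABI3* was itself at 0 in wildtype replicate 1, and the distance favours genes that share this. The shared 0 is therefore no separate observation.

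Seed storage proteins are the main products of the maturation programme, and the keywords for storage and oil body proteins matched 2 genes. *MtleguminB*, which encodes a legumin, had 13 and 55 counts in wildtype and 785 and 2146 in MtWOX9-1oe calli. The groups did not overlap, but the libraries of each group were far apart, at 40.1 ± 36.9 and 1317 ± 885 normalized counts (SD, n = 2). The log2 fold change was 5.06 ± 0.83 (SE, adjusted p = 0.011), and the call held in each of the 10 alternative fits. Its size rested on single libraries, at 4.13 without MtWOX9-1oe replicate 2, 4.31 without wildtype replicate 1 and 6.55 without wildtype replicate 2. *Mt2SA3*, a 2S albumin gene, had 0 and 1 counts in wildtype and 14 and 51 in MtWOX9-1oe calli. The ratio of its levels was 51.1, with an exact counting interval (Clopper-Pearson, 95%) of 8.85 to 2047. *Mt2SA3* entered the test only through the MtWOX9-1oe libraries, so its p is no support for the direction beyond the counts themselves. Its adjusted p was 0.026, but 0.078 without wildtype replicate 1 and 0.059 without MtWOX9-1oe replicate 2.

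Nuclear factor Y subunits of the B type include LEC1 in *A. thaliana*, but the deposited descriptions number the *M. truncatula* genes without saying which is of the LEC1 type. Of 14 genes, 5 were at 0 in all libraries and 1 had too few counts to test and 8 were tested, of which 2 were called higher, 2 lower and 4 neither, beside 20.2% and 18.9% of all tested genes. The median log2 fold change of the 8 was 0.15, beside 0.04 for all tested genes. *MtNF-YB3* had 0 and 2 counts in wildtype and 396 and 309 in MtWOX9-1oe calli, a ratio of 277 with an exact counting interval (95%) of 76.4 to 2291 (adjusted p = 0.0026). *MtNF-YB10* had 0 and 4 counts in wildtype and 207 and 135 in MtWOX9-1oe calli, with a log2 fold change of 5.99 ± 0.67 (SE, adjusted p = 0.0046). Both were close to absent in wildtype calli and entered the test only through the MtWOX9-1oe libraries. Leaving out wildtype replicate 1 gave *MtNF-YB10* a log2 fold change of 4.95, and against wildtype replicate 2 alone, the one wildtype library with counts, the ratio was 31.6. Leaving out the same library gave *MtNF-YB3* a value of 6.96, against 7.96 with all libraries. *MtNF-YB13* fell from 86 and 45 counts to 16 and 10 (log2 fold change -2.65 ± 0.40, adjusted p = 0.0086), and *MtNF-YB12* fell from 339 and 276 counts to 162 and 118 (log2 fold change -1.48 ± 0.18, adjusted p = 0.0054). The calls of *MtNF-YB12* and *MtNF-YB13* held in each of the 10 alternative fits.

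**Figure D4:**
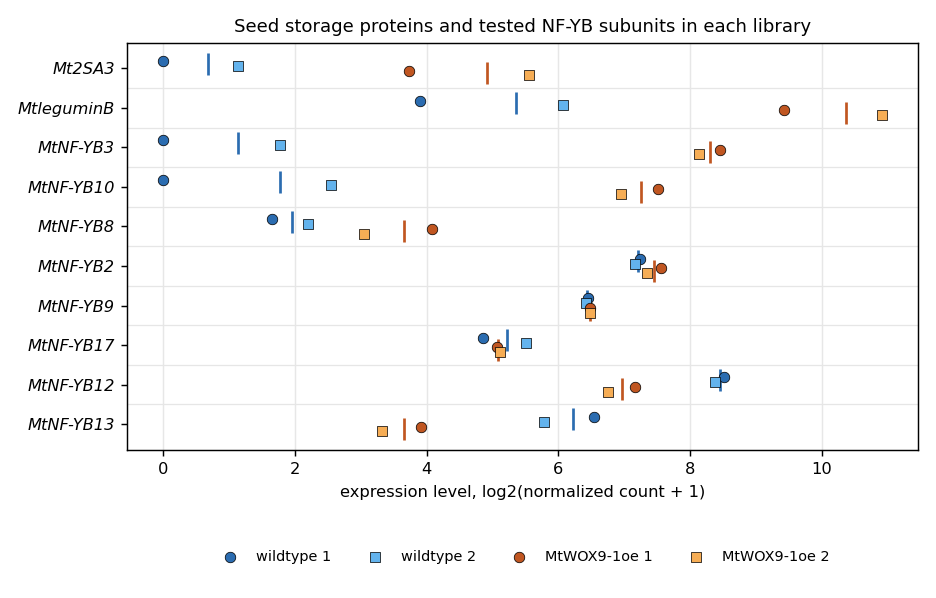
Expression level on the scale of log2(normalized count + 1) of the 2 seed storage genes and the 8 tested nuclear factor Y B subunit genes, 1 point per library with a tick at each group's mean. *MtNF-YB3* and *MtNF-YB10* are at 4 counts or fewer in each wildtype library and far to the right in MtWOX9-1oe calli, *MtNF-YB12* and *MtNF-YB13* are lower in MtWOX9-1oe calli, and the storage genes show wide spread within groups.

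In *A. thaliana*, Polycomb group proteins keep maturation genes silent after germination, and the deposited table describes 50 genes as such. Of these, 13 were at 0 in all libraries and 35 were tested, with 13 called higher, 3 lower and 19 not past the threshold. Beside them stand the 20.2% and 18.9% of all tested genes. Genes named *VRN1* gave 9 of the 13 calls higher and 0 of the 3 lower. The median log2 fold change was 0.32, against 0.04 for all tested genes. The number called higher was 8 without wildtype replicate 1 and 6 without MtWOX9-1oe replicate 1.

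Most of the listed genes called higher carry the name *VRN1*. In *A. thaliana* this is a B3-domain protein known for its role in the response to winter cold. The *VRN1* genes were listed by their deposited description only, and a role in silencing maturation genes was not tested. Of 24 *VRN1* genes, 11 were at 0 in all libraries and 11 were tested, and 9 of these were called higher and 0 lower, beside 20.2% and 18.9% of all tested genes. Most of those called higher, from *MtVRN1.1* (MtrunA17Chr1g0154041) to *MtVRN1.11* (MtrunA17Chr1g0154251), have neighbouring identifiers on chromosome 1. Whether reads were shared between these neighbours is not known, so the 9 calls cannot be taken as separate observations. The 9 include 2 genes at 0 in wildtype calli, and *MtVRN1.1* and *MtVRN1.13*, which passed the threshold in 5 of 10 alternative fits each. *MtVRN1.19* had 25 and 53 counts in wildtype and 368 and 261 in MtWOX9-1oe calli (log2 fold change 2.64 ± 0.40, or 3.38 without wildtype replicate 2, adjusted p = 0.0087). *MtVRN1.10* had 45 and 47 counts in wildtype and 211 and 172 in MtWOX9-1oe calli (log2 fold change 1.70 ± 0.18, adjusted p = 0.0042). Both were expressed in every library, unlike the next 2, which entered the test only through the MtWOX9-1oe libraries. *MtVRN1.18* was at 0 in wildtype calli and had 29 and 16 counts in MtWOX9-1oe calli, at least 5.54-fold higher (adjusted p = 0.013). *MtVRN1.4* was at 0 in wildtype calli and had 13 and 12 counts in MtWOX9-1oe calli, at least 3.09-fold higher (adjusted p = 0.014, but 0.057 without MtWOX9-1oe replicate 1).

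Of the 20 genes named *FIE*, after the WD40 subunit of Polycomb repressive complex, 3 were called higher and 2 lower, beside 20.2% and 18.9% of all tested genes. The log2 fold changes of the *FIE* genes lay between -0.91 and 1.29. The 2 histone methyltransferase genes of that complex moved in opposite directions; they were picked after their values were seen. *MtCLF* had 142 and 168 counts in wildtype and 481 and 378 in MtWOX9-1oe calli (log2 fold change 1.11 ± 0.20, adjusted p = 0.013). *MtSWN* had 826 and 667 counts in wildtype and 397 and 448 in MtWOX9-1oe calli (log2 fold change -1.16 ± 0.13, adjusted p = 0.0049). *MtVRN2* and *MtEMF2*, also in the list, were not past the threshold (log2 fold changes 0.35 ± 0.15 and 0.21 ± 0.38, adjusted p = 0.13 and 0.70). The 2 genes named *MEA*, for another methyltransferase known from the endosperm, were at 0 in all libraries.

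**Figure D5:**
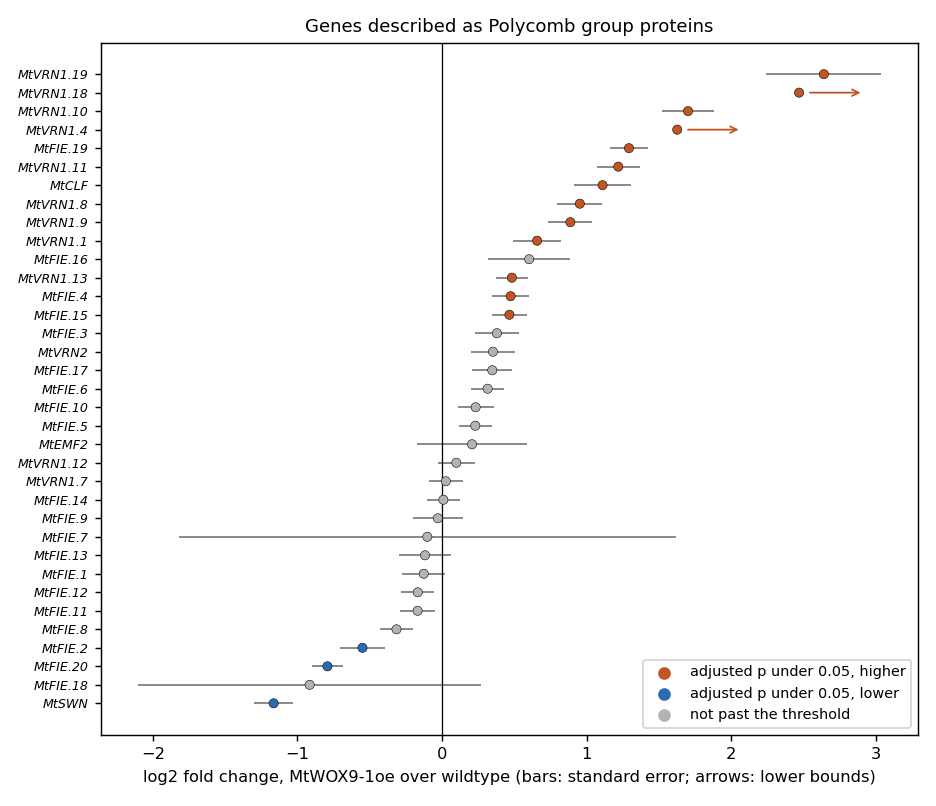
Log2 fold change (MtWOX9-1oe over wildtype) of the 35 tested genes described as Polycomb group proteins, with bars for the standard error; the points with arrows are lower bounds for the 2 genes at 0 in wildtype calli. The *VRN1* genes fill most of the upper end, *MtSWN* is at the lower end at -1.16, and most *FIE* genes lie near 0.

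Other factors of embryogenesis moved in different directions. The gene listed as *MtPLT4; MtBBM*, whose relative BABY BOOM induces somatic embryos when overexpressed in *A. thaliana*, had 9 and 90 counts in wildtype and 1241 and 958 in MtWOX9-1oe calli. Its wildtype libraries were unequal, as were those of *MtABI3*, with replicate 2 the higher. The log2 fold change was 4.08 ± 0.82 (SE, adjusted p = 0.018, but 0.057 without MtWOX9-1oe replicate 1), and it moved to 3.17 when wildtype replicate 1 was left out and to 6.65 when wildtype replicate 2 was. The gene listed as *MtMYB5; MtMYB118* fell from 160 and 122 counts to 24 and 46 (log2 fold change -2.35 ± 0.32, adjusted p = 0.0071), and *MtMYB115* was at 0 in all libraries. *MtSERK*, a somatic embryogenesis receptor kinase gene, had 553 and 506 counts in wildtype and 672 and 584 in MtWOX9-1oe calli, with a log2 fold change of -0.10 ± 0.12 (adjusted p = 0.52).

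The keywords used here found little on the hormone itself, and they missed at least *MtABA4*, given in the closing section. The keywords for ABA synthesis and breakdown matched only *MtNCED4*, a 9-cis-epoxycarotenoid dioxygenase gene, with 1 and 0 counts in wildtype and 3 and 1 in MtWOX9-1oe calli, too few to test. Those for ABA perception and signalling matched only *MtABI5*, those for B3 maturation factors only *MtABI3*, and those for LEA proteins and dehydrins only the 4 LEA genes above.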

How the data were processed

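PolyA RNA from each callus sample was sequenced. Per the labels, the submitters' processing notes name Trimmomatic, HISAT2, StringTie and DESeq, without versions; strand, multiply mapped reads and overlapping genes are not given in the sources used here. The counts deposited by the authors are whole numbers for each of 52709 genes of MtrunA17r5.0-ANR and were not normalized. The reads are from R108 and the annotation is that of A17, and the effect of this was not tested. The authors also deposited a normalized signal (the count times 1 constant per library), log2 fold changes with standard errors, a test score and p-values of their own comparison; only the symbols and descriptions of that table were used. 0 per-sample columns were left unused.

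Library totals were 6065277 and 5241334 counts (wildtype) and 6666866 and 6399209 counts (MtWOX9-1oe). Molecules were not counted by identifiers, so intervals and limits hold for counting error alone. Replicates differed by more than sampling noise (chi-square per degree of freedom 5.52 and 6.20), and the labels do not say whether they came from separate plants, so p-values measure the spread between these samples only. The 24630 genes whose counts summed to 10 or more entered edgeR 4.0.16 (R 4.3.3), with TMM scaling and the two-sided quasi-likelihood test between the groups. Its p-values were adjusted by the Benjamini-Hochberg method over all of these genes, with a threshold of 0.05. Normalized counts are scaled to the mean TMM-adjusted library size. The fits were tested on simulated data, with changes planted only in genes whose mean counts lay well above the limit of detection. Genes near 0 in wildtype calli were not covered by this.

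The tool (DESeq2 1.42.0), the scaling (size factors of DESeq2, or library size alone), the filter (filterByExpr, or 1 count or more), the prior count (2), the threshold (0.01), a block for the replicate number, and the libraries included (each left out in turn) were varied. The genes named are all those of the rule, *MtWOX9-1*, from each keyword list at most the 4 largest changes past the threshold, and the 5 profiles nearest to *MtABI3*. Marker genes, *MtCLF*, *MtSWN*, *MtVRN2*, *MtEMF2* and the genes named *MEA* were picked outside this rule, with their values known. So were *MtSERK*, *MtMYB115*, *MtNCED4* and those of the closing section. The members and lists were chosen with earlier results of these data known. Gene lengths were matched for 2 of the 10 genes, so levels are not ranked between genes, and the likeness to *MtABI3* is of counts not corrected for length. A planned search for RY and ABA-responsive elements in promoters was not run.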

Additional observations from a re-analysis of the deposited data

How the results depend on the processing

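With all 4 libraries kept, the calls of *MtABI4*, *MtABI5*, *MtPM25*, *MtLEA4-5* and *MtLEA* held in every alternative at the threshold of 0.05. At an adjusted p under 0.01, 3 were called higher and 1 lower. For *MtABI4*, *MtPM25* and *MtLEA4-5* this is no support, since they entered the test only through the MtWOX9-1oe libraries. The counts over all genes moved by over 1.5 times in some settings. Genes called higher numbered 1907 at an adjusted p under 0.01 and between 2696 and 4465 with a library left out, against 4985 as reported. Genes called lower numbered 3101 with DESeq2, 2023 at an adjusted p under 0.01 and between 2935 and 3858 with a library left out, against 4660. With the replicate number as a block, 3332 genes were called higher and 3336 lower. The numbers are names only: the differences between replicates 1 and 2 correlated across genes with r = -0.037 between the groups, and genes are not independent replicates. Polycomb genes called higher numbered 8 with the block, 4 at an adjusted p under 0.01 and between 6 and 11 with a library left out, against 13. The cause was not tested. Library size as the only scaling moved the median log2 fold change of all genes from 0.04 to 0.18 and called 6024 genes higher and 3928 lower. Of 187 values for 17 tested single genes, 182 kept direction and side of the threshold, 5 lost the call (*MtVRN1.4* with the block at an adjusted p of 0.055 and without MtWOX9-1oe replicate 1, *Mt2SA3* and *MtPLT4; MtBBM* as given above) and 0 reversed. The values with a prior count of 2 carry the p-values of the reported fit, so they could not lose a call. All 17 genes were called in the reported fit, and those of the keyword lists were chosen for their large changes in it. The 182 kept values therefore say nothing about how stable calls are in other genes. The size was less stable: leaving out 1 library moved the fitted fold by over 1.5 times in 10 genes with *MtABI3* included, and in 8 of them leaving out wildtype replicate 2 did so. A gene at 0 in both wildtype libraries gives only a lower bound at these depths.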

Other observations

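Other genes of seed development were looked up after the values above had been seen, and are given as values. *MtHSFA9*, the heat shock factor that in sunflower and *A. thaliana* is active in maturing seeds, was at 0 in wildtype calli and had 18 and 8 counts in MtWOX9-1oe calli, at least 3.20-fold higher (edgeR, adjusted p = 0.025, up to 0.054 over the alternatives). *MtABA4*, named after a gene of ABA precursor synthesis in *A. thaliana*, was likewise at 0 in wildtype calli and had 27 and 15 counts in MtWOX9-1oe calli, at least 5.17-fold higher (adjusted p = 0.013). *MtHSFA9* and *MtABA4* entered the test only through the MtWOX9-1oe libraries, so these p-values are no support beyond the counts themselves. Among tested genes with 0 counts in both wildtype libraries, 85.2% were called higher. *MtGolS1*, a galactinol synthase gene of the pathway that makes the sugars stored in drying seeds, rose from 26 and 35 counts to 119 and 166 (log2 fold change 1.87 ± 0.30, adjusted p = 0.00995), whereas *MtGolS2* was at 0 in all libraries.

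*MtBS1*, which limits seed and organ size in *M. truncatula*, rose from 48 and 61 counts to 173 and 179 (log2 fold change 1.33 ± 0.20, adjusted p = 0.0091). *MtDASH*, a DOF factor of the endosperm, had 1 count in MtWOX9-1oe replicate 2 and 0 elsewhere, too few to test.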
